A study of Mus musculus with 2 samples.

Results

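The vitamin K dependent clotting factors and the enzymes that carboxylate them were followed in polyadenylated RNA of adult mouse liver. The set was chosen by gene symbol and holds 10 of the 43346 genes listed in the gene tables. It contains 4 procoagulant zymogens (prothrombin F2 and factors F7, F9 and F10), 3 anticoagulant proteins (protein C, Proc; protein S, Pros1; protein Z, Proz) and 3 enzymes (the gamma-glutamyl carboxylase Ggcx and the vitamin K epoxide reductases Vkorc1 and Vkorc1l1). All 10 were found in both libraries. The tissue is liver of C57BL/6J mice, an inbred laboratory strain, at an age of 8 weeks, labelled as pooled from male and female littermates, with no treatment, transgene or mutation named. There is 1 group of 2 libraries, labelled biological replicates 1 and 2. Each was made strand-specific from rRNA-depleted polyadenylated RNA longer than 200 nucleotides, with external spike-in RNAs, and read in pairs of 76 bases. Both carry the same donor identifier and separate biosample identifiers, and no label says whether different animals were used. With 1 library on each side, a p-value between them measures counting error alone, and a difference beyond it may be technical.

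Vitamin K dependent proteins are made mainly by hepatocytes and secreted into plasma. In the endoplasmic reticulum Ggcx binds a propeptide and converts glutamate residues of the adjoining Gla domain to gamma-carboxyglutamate, which binds calcium and lets the protein dock on phospholipid membranes. Each turn oxidises vitamin K, and Vkorc1, the target of warfarin, reduces it again. Tissue factor with activated F7 starts coagulation, F9 and F10 carry it forward, and F2 becomes thrombin, which cuts fibrinogen. Proc with its cofactor Pros1 destroys activated cofactors, and Proz assists the inhibitor Serpina10 against activated F10.

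The stretch that is carboxylated is encoded alike in the factor genes, and it is shown here because it is what the proteins have in common. In each first annotated model (the GENCODE transcript numbered 201), the exon that holds most of the propeptide and most of the Gla domain has 158 to 164 bases. It is printed for F2, F9 and Pros1 on the coding strand, 5′ to 3′, with the in-frame glutamate codons GAA and GAG in capitals. The positions on GRCm38 are chr2:91635778-91635941, minus strand, for F2, chrX:60003837-60004000, plus strand, for F9, and chr16:62885401-62885558, plus strand, for Pros1.
F2 Gla exon: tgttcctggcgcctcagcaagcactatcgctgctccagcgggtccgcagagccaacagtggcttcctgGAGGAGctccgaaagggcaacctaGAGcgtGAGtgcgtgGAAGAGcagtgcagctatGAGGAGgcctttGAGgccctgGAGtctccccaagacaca
F9 Gla exon: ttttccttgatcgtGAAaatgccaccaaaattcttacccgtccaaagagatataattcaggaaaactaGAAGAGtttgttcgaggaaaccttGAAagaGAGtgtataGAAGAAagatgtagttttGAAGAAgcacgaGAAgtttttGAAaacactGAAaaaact
Pros1 Gla exon: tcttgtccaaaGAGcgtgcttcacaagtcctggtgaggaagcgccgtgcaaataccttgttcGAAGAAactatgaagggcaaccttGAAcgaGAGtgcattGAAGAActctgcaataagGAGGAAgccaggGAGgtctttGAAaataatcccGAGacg
F2 has 10 glutamate codons among the 54 whole codons of this exon (18.5%), F9 has 12 of 54 (22.2%) and Pros1 has 12 of 52 (23.1%). Over the whole coding sequence the shares were 7.61% in F2, 9.34% in F9 and 6.07% in Pros1. The exon counts include codons of the propeptide, such as the first capital codon in F9 and in Pros1.

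Directly after the Gla exon comes an exon of exactly 25 bases, which encodes the short aromatic segment that joins the Gla domain to the rest of the protein. It is printed for 6 factors because its length is fixed while most of its letters are not. Capitals mark the bases that are identical in all 6. The positions on GRCm38 are chr2:91635171-91635195, minus strand, for F2, and on the plus strand chr8:13030557-13030581 for F7, chrX:60004408-60004432 for F9, chr8:13045076-13045100 for F10, chr8:13064602-13064626 for Proz and chr16:62888981-62889005 for Pros1.
F2 small exon: gacgtgTtcTgggccaagTAcacaG
F7 small exon: aagcagTtcTggattgttTAcagtG
F9 small exon: actgaaTttTggaagcagTAtgttG
F10 small exon: aaagaaTacTggaccaaaTAtaaaG
Proz small exon: gatgagTtcTggagacagTAtgggG
Pros1 small exon: gattatTttTatccaaaaTAtttaG
Of 25 bases, 5 were identical in all 6 sequences. Over the 15 pairs the number of identical bases ran between 8 and 17, with a median of 13.

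In all 7 factors, Proc included, the Gla exon opens with the last 2 bases of a codon and the small exon opens at a codon boundary. F7 and F10 have 12 glutamate codons of 53 in the Gla exon, Proz has 10 of 54 and Proc has 11 of 54, so the share runs between 18.5% and 23.1% over the 7 genes. Over their whole coding sequences it runs between 6.07% and 9.34%. Among 17500 protein-coding genes whose first model has at least 3 exons, 69 (0.394%) have an internal coding exon of 25 bases, and 12 (0.0686%) have it directly after an exon of 150 to 170 bases, a range set around the lengths in the factors. These 12 are the 7 factors, Gas6, which is a further Gla protein, Gpx4, Selenow, Il17rb and 1500009L16Rik. The match is of exon lengths only.

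Replicate 1 had 60770411 estimated reads and replicate 2 had 61688916, of which 1094063 and 1088802 came from spike-ins. TPM, an abundance scaled by transcript length and to a fixed sum per library, was at least 1 for 10907 and 11317 genes. The liver label was checked on hepatocyte markers (Alb, Apoa1, Ttr and others), and all 8 were at 1 TPM or more in both libraries. The reads did not bear out the label of pooled sexes. The 4 broadly expressed Y-linked genes had 0 reads in either library, and all 1569 genes listed on chromosome Y had 0 reads in replicate 1 and 1 read in replicate 2. The X-linked gene Xist had 18451 reads in replicate 1 and 26061 reads in replicate 2. How reads from chromosome Y were treated in the processing is not stated. Markers of other cells differed between the libraries. Those of Kupffer cells, the resident liver macrophages, summed to 212 TPM in replicate 1 and 351 TPM in replicate 2, those of endothelium to 115 and 172 TPM, and those of red cells, mostly globins, to 1290 and 2110 TPM. The other sums were 103 and 117 TPM for stellate cells, 21.2 and 18.7 TPM for cholangiocytes and 4.46 and 10.6 TPM for lymphocytes, in the same order. In bulk tissue, fewer cells of a type and less RNA per cell cannot be told apart.

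F2 was the most abundant of the zymogens and F9 the least. F2 (ENSMUSG00000027249, chromosome 2, 91625320 to 91636414, minus strand, GRCm38 here and below), the precursor of thrombin, stood at 1691.57 TPM in replicate 1 against 1770.02 TPM in replicate 2, a mean of 1731 ± 55.5 TPM (SD, n = 2), and ranked 77 among all genes listed. F10 (ENSMUSG00000031444, chromosome 8, 13037308 to 13056676, plus strand), whose active form cuts F2, stood at 226 TPM in replicate 1 against 321 TPM in replicate 2 (mean 274 ± 67.5 TPM). F7 (ENSMUSG00000031443, chromosome 8, 13026034 to 13035809, plus strand), the partner of tissue factor, stood at 145 TPM in replicate 1 against 159 TPM in replicate 2 (152 ± 9.81 TPM). F9 (ENSMUSG00000031138, chromosome X, 59999464 to 60030759, plus strand), the factor missing in haemophilia B, stood at 25.32 TPM in replicate 1 against 21.04 TPM in replicate 2 (23.2 ± 3.03 TPM) and ranked 3348. The libraries of no zymogen overlapped those of another, and their order by TPM was the same in both. For each TPM of F9 there were 66.8 TPM of F2 in replicate 1 and 84.1 TPM in replicate 2.

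Among the anticoagulant proteins Proc led and Pros1 was the lowest of all 10 genes. Proc (ENSMUSG00000024386, chromosome 18, 32123126 to 32139570, minus strand), the zymogen of activated protein C, stood at 498 TPM in replicate 1 against 506 TPM in replicate 2, and its SD of 5.99 TPM was the smallest relative to the mean among the 10 genes. Proz (ENSMUSG00000031445, chromosome 8, 13060914 to 13076026, plus strand), a cofactor with no protease activity of its own, stood at 265 TPM in replicate 1 against 306 TPM in replicate 2 (286 ± 28.9 TPM). Pros1 (ENSMUSG00000022912, chromosome 16, 62854307 to 62929346, plus strand), the cofactor of activated protein C, stood at 6.29 TPM in replicate 1 against 8.01 TPM in replicate 2 (7.15 ± 1.22 TPM). Pros1 rests on 955 reads in replicate 1 and 1207 reads in replicate 2. Per TPM of Pros1 there were 79.1 TPM of Proc in replicate 1 and 63.2 TPM in replicate 2.

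Of the vitamin K enzymes, the reductase Vkorc1 was far above the carboxylase. Vkorc1 (ENSMUSG00000096145, chromosome 7, 127893063 to 127895617, minus strand) stood at 747 TPM in replicate 1 against 719 TPM in replicate 2 (733 ± 19.2 TPM), second among the 10 genes. Ggcx (ENSMUSG00000053460, chromosome 6, 72414308 to 72430712, plus strand) stood at 50.8 TPM in replicate 1 against 54.8 TPM in replicate 2 (52.8 ± 2.84 TPM). Vkorc1l1 (ENSMUSG00000066735, chromosome 5, 129941970 to 129986692, plus strand), a paralog that also reduces vitamin K, stood at 13.8 TPM in replicate 1 against 11.9 TPM in replicate 2 (12.8 ± 1.38 TPM). Vkorc1 TPM per Vkorc1l1 TPM was 54.0 in replicate 1 and 60.6 in replicate 2, and Vkorc1 per Ggcx TPM was 14.69 and 13.12. The ratio to Vkorc1l1 rests on the lengths in the table and would be higher with the other Vkorc1l1 lengths considered below. The deposited posterior SD of the read count, which is large where reads are shared with a copy, was at most 0.196% of the reads for any of the 10 genes.

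**Figure D1:**
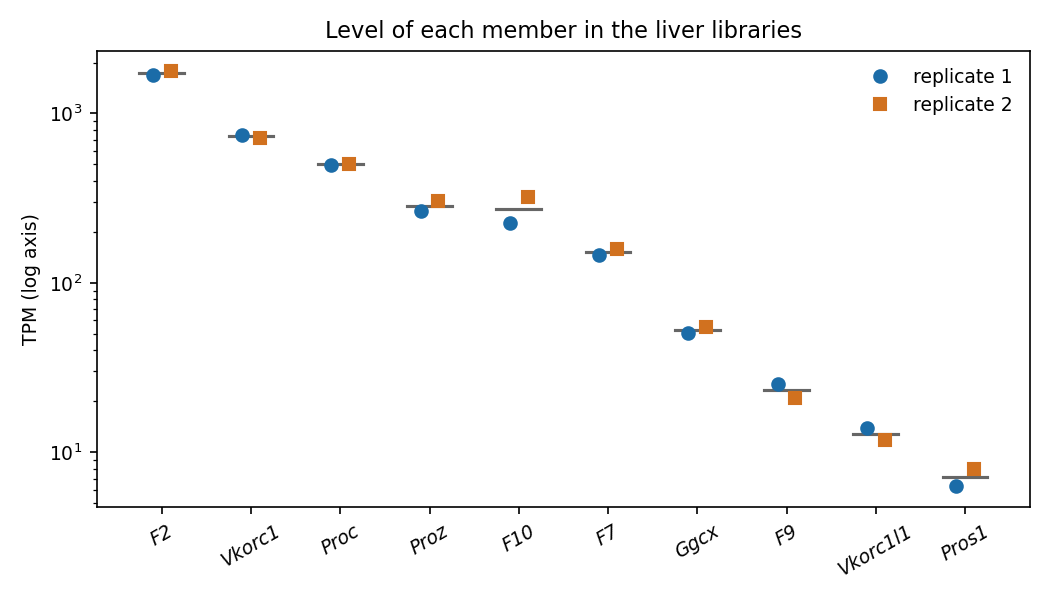
TPM on a log axis for the 10 genes, ordered by mean, with replicate 1 as circles on the left, replicate 2 as squares on the right and the mean as a bar. F2 lies highest at 1731 TPM and Pros1 lowest at 7.15 TPM, and the libraries of Proz and F10 overlap.

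The order by mean TPM was F2, Vkorc1, Proc, Proz, F10, F7, Ggcx, F9, Vkorc1l1 and Pros1. Of the 9 neighbouring pairs, Proz and F10 overlapped and changed places between the libraries, and the other 8 did not overlap. Together the 10 genes summed to 3669 TPM in replicate 1 and 3878 TPM in replicate 2, which is 0.377% ± 0.0148 of TPM (SD, n = 2). The 4 procoagulant zymogens held 2088 TPM in replicate 1 against 2272 TPM in replicate 2, the 3 anticoagulant proteins 769 and 820 TPM in the same order, and the 3 enzymes 811 and 786 TPM. F2 alone made up 59.2% of the TPM of the 7 factors in replicate 1 and 57.2% in replicate 2. The summed substrates stood in nearly the same proportion to the carboxylase in both libraries, at 56.2 TPM of factor mRNA per TPM of Ggcx in replicate 1 and 56.4 in replicate 2. F7, F10 and Proz lie in tandem within 49993 bases of chromosome 8, with 1498 bases between F7 and F10 and 4237 bases between F10 and Proz.

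TPM depends on the transcript model, and this bears on the genes with several models of unequal length. The table gave Proz a model of 2398 bases, whereas the later annotation gives Proz-201 a length of 3361 bases, with which its mean would be 199 TPM. F10 would have 255 TPM with the length of F10-201 alone and 189 TPM with that of F10-202 alone. Vkorc1l1 would have 6.07 TPM with the later length of Vkorc1l1-201 and 3.85 TPM with that of Vkorc1l1-203, in both cases below the 7.15 TPM of Pros1. The place of Vkorc1l1 above Pros1 and that of Proz above F10 are therefore tied to the models used.

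The libraries were then compared with each other, which asks whether they differ by more than counting error. For each gene a two-sided exact binomial test of the split of its reads was run, with TMM scaling, a normalization that takes most genes as equal, and Benjamini-Hochberg adjustment over the 14533 genes with at least 20 reads. The test compares these libraries, not conditions. All 10 genes passed the filter, and 8 had an adjusted p under 0.05, against 57.6% of all genes tested. That share depends on depth and was 63.6% with a filter of at least 100 reads, which all 10 genes also passed. Of the 8, the 5 higher in replicate 1 were F2, Vkorc1, Proc, F9 and Vkorc1l1 (29.0% of all genes were called in that direction). Higher in replicate 2 were 3, Proz, F10 and Pros1 (28.6% of all genes). None was 2-fold apart, which 7.83% of all genes were while passing the test. The median absolute log2 ratio was 0.14 over the 10 genes and 0.26 over all genes tested.

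F9 was the farthest apart. It had 3143 reads in replicate 1 and 2642 reads in replicate 2, a log2 ratio of replicate 1 over replicate 2 of 0.40 (95% counting interval 0.32 to 0.47), and an adjusted p of 2.40e-24 by the exact binomial test with Benjamini-Hochberg adjustment. Of all genes tested, 33.2% were at least as far apart as F9. Vkorc1l1 followed with 921 reads in replicate 1 and 821 reads in replicate 2 (log2 ratio 0.31, interval 0.17 to 0.45). In the other direction F10 had 18712 reads in replicate 1 and 24312 reads in replicate 2, a log2 ratio of -0.23 (interval -0.26 to -0.21), and 54.0% of all genes were at least as far apart. Pros1 had a log2 ratio of -0.19 (interval -0.32 to -0.07), and Vkorc1 one of 0.19 (0.16 to 0.22). The calls thus include ratios inside the spread of all genes.

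F2, with 148760 reads in replicate 1 and 158123 reads in replicate 2, differed by a log2 ratio of only 0.06 (interval 0.05 to 0.07), yet its adjusted p was 1.92e-26 by the exact binomial test with Benjamini-Hochberg adjustment. Proc had a log2 ratio of 0.10 (interval 0.08 to 0.12) and Proz one of -0.08 (-0.10 to -0.06). F7 had 11839 reads in replicate 1 and 13145 reads in replicate 2, a log2 ratio of -0.01 (-0.04 to 0.03) and an adjusted p of 0.797 by the exact binomial test with Benjamini-Hochberg adjustment. Ggcx had 6705 reads in replicate 1 and 7242 reads in replicate 2, a log2 ratio of 0.03 (-0.01 to 0.08) and an adjusted p of 0.241 in that test. The direction of F2, Proc and Ggcx turned with the scaling. With the total reads of genes the median log2 ratio of all genes moved to -0.13 and with spike-in totals to -0.15, against -0.00 with TMM, and F2 (-0.066 and -0.095), Proc (-0.023 and -0.053) and Ggcx (-0.089 and -0.118) were then lower in replicate 1. Under both of these scalings F10 (-0.356 and -0.385) and Pros1 (-0.316 and -0.345) were farther apart than F9 (0.273 and 0.244). F7 and Ggcx, not called by TMM, passed the test under both. The calls among the 10 genes split into 3 higher in replicate 1 and 6 higher in replicate 2 when total reads set the scale, and into 3 and 7 when spike-ins did. Over all genes, 50.3% of calls were higher in replicate 1 by TMM, against 30.7% by total reads and 26.3% by spike-ins.

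Kupffer cell markers also differed between the libraries, with 9 of 9 higher in replicate 2 under each of the 3 scalings (median log2 ratio -0.69 by TMM), as did endothelial markers, with 7 of 8 higher by TMM (-0.51). For platelets, 3 of the 4 markers tested were higher in replicate 2 (-1.16), but their 7 genes summed to only 4.83 TPM in replicate 1 and 10.2 TPM in replicate 2. Of the hepatocyte markers, 7 of 8 were higher in replicate 1 by TMM (0.18), but 4 of 8 were when scaled by total reads or spike-ins. The part of these cells in the ratios of the 10 genes was not tested.

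**Figure D2:**
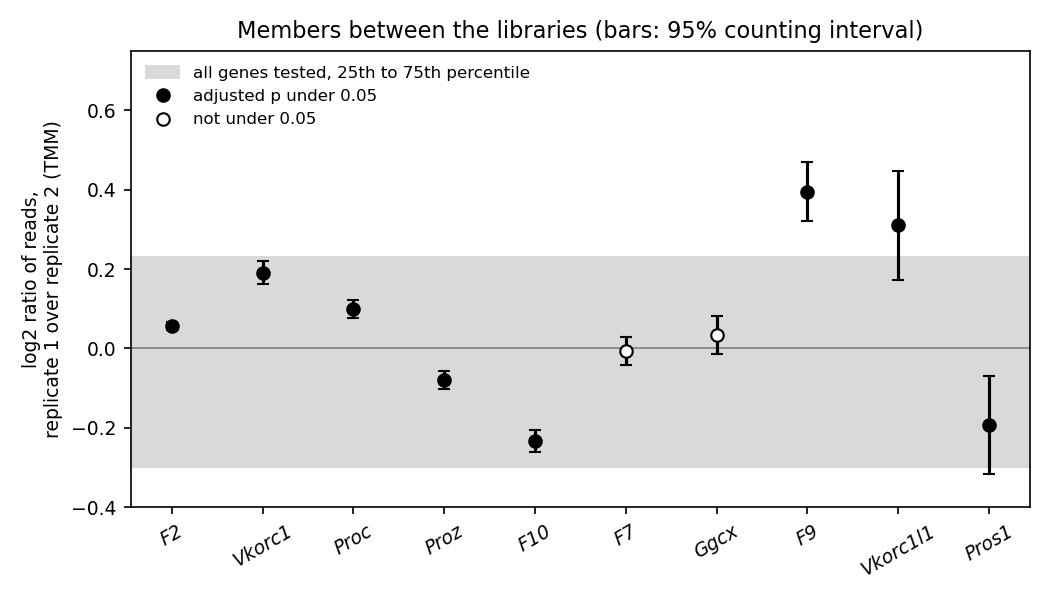
Log2 ratio of reads, replicate 1 over replicate 2 with TMM scaling, for the 10 genes. Bars are 95% counting intervals, filled points have an adjusted p under 0.05 by the exact test, and the grey band spans the 25th to 75th percentile of 14533 genes (-0.30 to 0.23); F9 and Vkorc1l1 lie above the band.

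The ratio of F10 was larger in TPM than in reads, with a log2 TPM ratio of -0.51 against -0.23 for reads with TMM scaling. With total reads as the scale it was -0.36 in reads. The effective length of F10, the mean length open to reads given the isoforms estimated, was 1698 bases in replicate 1 and 1540 bases in replicate 2. For F7, Proc, Proz and F9, which have 1 isoform in the tables, the annotated length was the same in both libraries. Their ratios were also lower in TPM, which carry no TMM scaling, than in TMM-scaled reads. In that order they were -0.13, -0.02, -0.21 and 0.27 in TPM, against -0.01, 0.10, -0.08 and 0.40. With the length of F10-201 alone, F10 stood at 224 TPM in replicate 1 against 287 TPM in replicate 2.

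The transcript tables list 21 isoforms of the 10 genes, and 6 genes have more than 1. In 5 of the 6 the leading isoform was the same in both libraries. F2-201 held 99.5% of F2 TPM in replicate 1 and 99.1% in replicate 2, and Ggcx-201 held 98.4% and 97.1% of Ggcx. Vkorc1-201 held 97.3% of Vkorc1 in replicate 1 and 94.1% in replicate 2, beside the shorter Vkorc1-202 with 2.69% and 5.91%. Pros1-201 held 100% and 97.7%. Vkorc1l1 was split, with 74.8% in replicate 1 and 73.1% in replicate 2 assigned to Vkorc1l1-202 and the remainder to Vkorc1l1-201.

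F10 was the exception, with its TPM spread over 4 models. F10-202 led in replicate 1 with 34.3%, against 17.5% in replicate 2, and F10-204 led in replicate 2 with 31.6%, against 24.0% in replicate 1. F10-205 held 21.9% in replicate 1 and 28.2% in replicate 2, and F10-201 held 19.7% and 22.7%. F10-204 and F10-205 leave the last coding junction 4 and 10 bases early, which moves the reading frame, and their coding lengths are 963 and 957 bases against 1479 bases for F10-201. Up to 30 bases on either side of that junction are printed for the 3 models, joined as in the RNA, because reads across it can be told apart. The upstream exon begins its window at chr8:13053444 on the plus strand of GRCm38 and ends at 13053473 in F10-201, 13053469 in F10-204 and 13053463 in F10-205. Capitals mark the bases that F10-205 leaves out.
F10-201 last junction: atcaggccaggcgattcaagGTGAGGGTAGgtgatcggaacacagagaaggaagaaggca
F10-204 last junction: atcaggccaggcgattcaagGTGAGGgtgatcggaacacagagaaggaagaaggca
F10-205 last junction: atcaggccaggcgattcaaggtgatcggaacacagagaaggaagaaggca
All 3 models join the same last exon.

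Junction reads gave a different picture of F10 from the isoform estimates. The authors' junction file, with reads pooled over the libraries and therefore no replicate error, holds 3193 reads ending at the last F10 exon. Of these, 3130 (98.0%, exact Clopper-Pearson 95% interval 97.5% to 98.5%) left the upstream exon at the end used by F10-201 and F10-202. The end of F10-204 had 25 reads (0.783%) and that of F10-205 had 33 reads (1.03%), together 1.82% (interval 1.38% to 2.34%). In the transcript tables the same pair of models held 45.9% of F10 TPM in replicate 1 and 59.8% in replicate 2, and 33.3% and 48.2% of its reads. The intervals count reads, which carry no molecular identifiers, and so cover counting error alone.

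**Figure D3:**
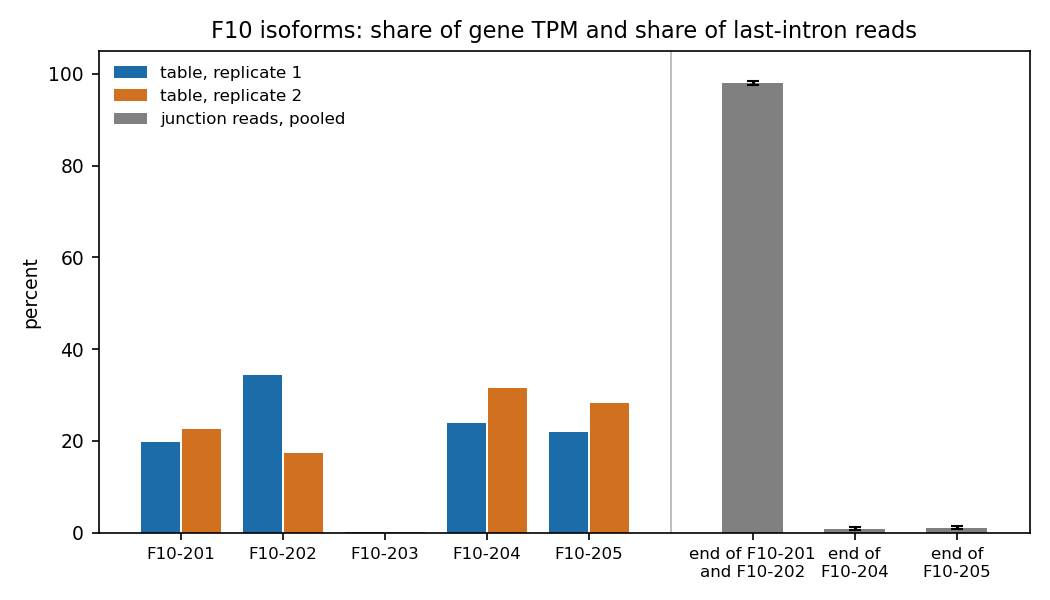
Left, percent of F10 TPM assigned to each model in the transcript tables, replicate 1 beside replicate 2. Right, percent of the 3193 pooled junction reads into the last exon that left from each upstream end, with exact 95% intervals; F10-204 and F10-205 hold 45.9% and 59.8% of TPM in the tables and 1.82% of the junction reads.

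At the other end of F10 the first junction was sparse. Of 52 reads leaving the first exon, 48 followed F10-201 and 4 followed F10-202, against 480 reads over the next intron and 3130 over the last. The reads over F10 introns thus ran between 48 and 3130 with a median of 869.5, the highest 65.2 times the lowest. F7 introns ran between 263 and 1331 reads and Proz introns between 792 and 2572 reads. F9, with 17 to 74 reads per intron, and Pros1, with 11 to 385, had the fewest among the factors. F2 had 4476 to 34361 reads per intron.

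Few reads followed the start of the first annotated Proc model. No more than 82 reads crossed the first intron of Proc-201, while 16724 left a single other donor downstream of that model's first exon. Of those 16724, 8988 (53.7%) followed the first intron of Proc-206, 4826 (28.9%) ended at an acceptor 4 bases from that of Proc-206 that no model pairs with this donor, and 2710 (16.2%) followed Proc-204. Over the remaining 7 introns Proc had between 2479 and 12897 reads. The transcript tables list Proc-201 as the only Proc isoform. Models numbered 201 held 94.0% of the 327456 junction reads of the 10 genes, of which 210496 were reads of F2. They held 70.4% of those of Proc and 41.7% of the 36 reads of Vkorc1l1.

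Most exons were joined in full. The 25-base exon was skipped by 5 reads in F2, against 14846 reads joining it to the Gla exon (0.0337%, exact interval 0.0109% to 0.0786%). No read skipped it in F7, F9, F10, Proc, Pros1 or Proz, and the depth set how far that reaches: by the limit of 3 reads, a count of 0 allows a share of up to 0.0730% in Proc, 0.226% in Proz, 0.759% in F10, 0.804% in F7, 13.6% in Pros1 and 17.6% in F9. The exact 95% interval, used for F2 above, reaches further, to 0.0897% in Proc, 0.278% in Proz, 0.930% in F10, 0.984% in F7, 15.4% in Pros1 and 19.5% in F9. Exon 10 of Ggcx, of 152 bases, was skipped by 74 reads, as in the model Ggcx-204, which is 7.76% (interval 6.15% to 9.65%) of the reads leaving exon 9 for exon 10 or 11. Exon 6 of Proz, of 83 bases, was skipped by 29 reads (2.40%, interval 1.62% to 3.44%). Vkorc1-202, with a mean of 4.30% of TPM in the tables, had 5 reads over its own first intron against 12644 for Vkorc1-201.

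Vkorc1l1 had few junction reads for its total. The tables assign it 921 and 821 reads in replicates 1 and 2, and the junction file holds 36 reads for it. Of these, 13 joined exon 1 to exon 3 as in Vkorc1l1-203, a model that the transcript tables do not list, 7 joined exon 1 to exon 2 as in Vkorc1l1-201, and 3 followed the first intron of Vkorc1l1-202, the leading isoform in the tables. By an exact interval, skipping of exon 2 made up 40.8% to 84.6% of the reads joining exon 1 of Vkorc1l1-201 to exon 2 or 3.

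**Figure D4:**
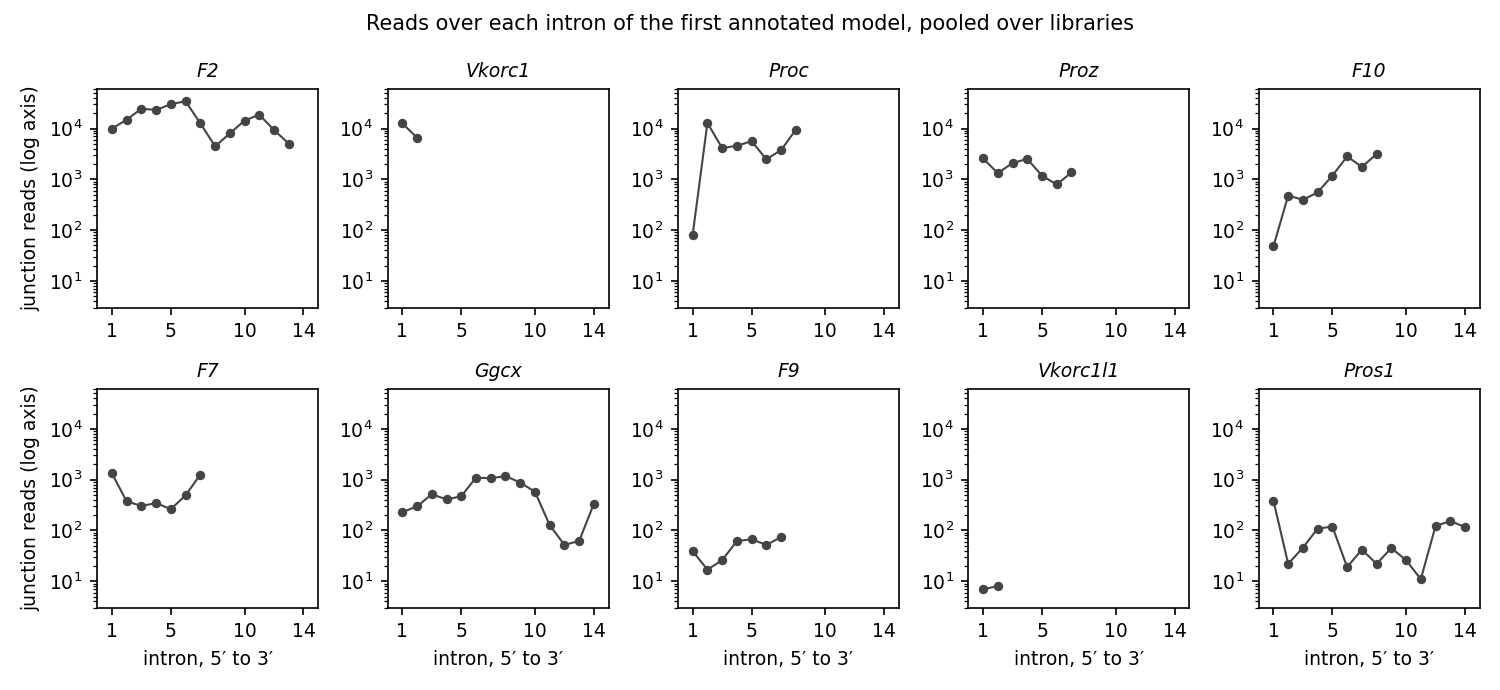
Reads over each intron of the model numbered 201 of the 10 genes, in 5′ to 3′ order, pooled over the libraries, on a log axis shared by all panels. Proc drops to 82 reads at its first intron and F10 to 48, and Vkorc1l1 has 7 and 8 reads.

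The genes that act with the vitamin K dependent proteins spanned a wider range. Among fibrinogen, cofactor and contact factor genes, 9 of 11 found reached 1 TPM in both libraries, led by fibrinogen gamma (Fgg) at 2287 ± 194 TPM and fibrinogen alpha (Fga) at 792 ± 79.2 TPM (SD, n = 2 each). By the exact test with TMM scaling, used for all counts that follow, 57.6% of all genes were called, 29.0% higher in replicate 1 and 28.6% higher in replicate 2, and the counts of each list are to be read against these shares. In this list 9 of 10 tested passed, 4 higher in replicate 1 and 5 in replicate 2 (2 and 6 by total reads or spike-ins). Among partners and inhibitors, antithrombin (Serpinc1), which blocks thrombin and activated F10, had 4474 ± 752 TPM, and heparin cofactor II (Serpind1) had 325 ± 12.1 TPM. Of this list 4 of 7 reached 1 TPM in both libraries, and 5 of 5 tested passed, 2 higher in replicate 1 and 3 in replicate 2. Receptors and initiators were low throughout, with at most 7.57 ± 3.19 TPM for the Gas6 receptor Axl and 6.42 ± 0.417 TPM for the thrombin receptor F2r. There 4 of 9 tested passed, which is no larger a share than that of all genes, and all 4 were higher in replicate 2, while 5 of 10 reached 1 TPM in both libraries.

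Maturation enzymes were all expressed. All 6 reached 1 TPM in both libraries, led by the propeptide-cutting proteases Furin at 134 ± 4.65 TPM and Pcsk6 at 38.7 ± 0.552 TPM, and 4 of 6 passed the exact test, 3 higher in replicate 1 and 1 in replicate 2. Among other genes of vitamin K handling, 7 of 8 reached 1 TPM in both libraries. The cytochrome P450 genes Cyp4f14 (454 ± 29.0 TPM) and Cyp4f15 (173 ± 1.74 TPM) led, and 6 of 7 tested passed, 3 in each direction.

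Other Gla proteins were mostly low in liver. Of 9 genes, 3 reached 1 TPM in both libraries: the membrane protein Prrg2 (67.5 ± 4.78 TPM), the growth factor Gas6 (44.6 ± 8.39 TPM) and matrix Gla protein Mgp (8.48 ± 2.73 TPM). The osteocalcin genes Bglap and Bglap2 had 0 reads in both libraries. Bglap3, in the same list, had 4 reads (0.1 TPM) in replicate 1 and 87 reads (1.69 TPM) in replicate 2, a log2 ratio of -4.14. Mgp, Bglap, Bglap2 and Bglap3 were named after their values were seen. Of 6 tested, 4 passed, 3 higher in replicate 1 and 1 in replicate 2. The summed TPM of the 9 was 132 in replicate 1 and 112 in replicate 2, against 2857 and 3092 for the 7 clotting factors.

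All 10 liver transcription factors listed were detected, led by Cebpa (312 ± 18.7 TPM) and Hnf4a (243 ± 27.3 TPM), both known to act on promoters of clotting factor genes. Of these 9 passed, 5 higher in replicate 1 and 4 in replicate 2. Onecut1, a homeobox factor of hepatocytes, stood at 9.32 TPM in replicate 1 against 27.7 TPM in replicate 2, a log2 ratio of reads of -1.47. Onecut1 is not one of the 10 genes and is given because it was at least 2-fold apart at 10 TPM or more on average. By total reads or spike-ins the calls higher in replicate 1 and in replicate 2 were 2 and 2 for maturation enzymes, 2 and 4 for vitamin K handling, 2 and 1 for other Gla proteins, 5 and 5 for transcription factors and 2 and 3 for partners and inhibitors.

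**Figure D5:**
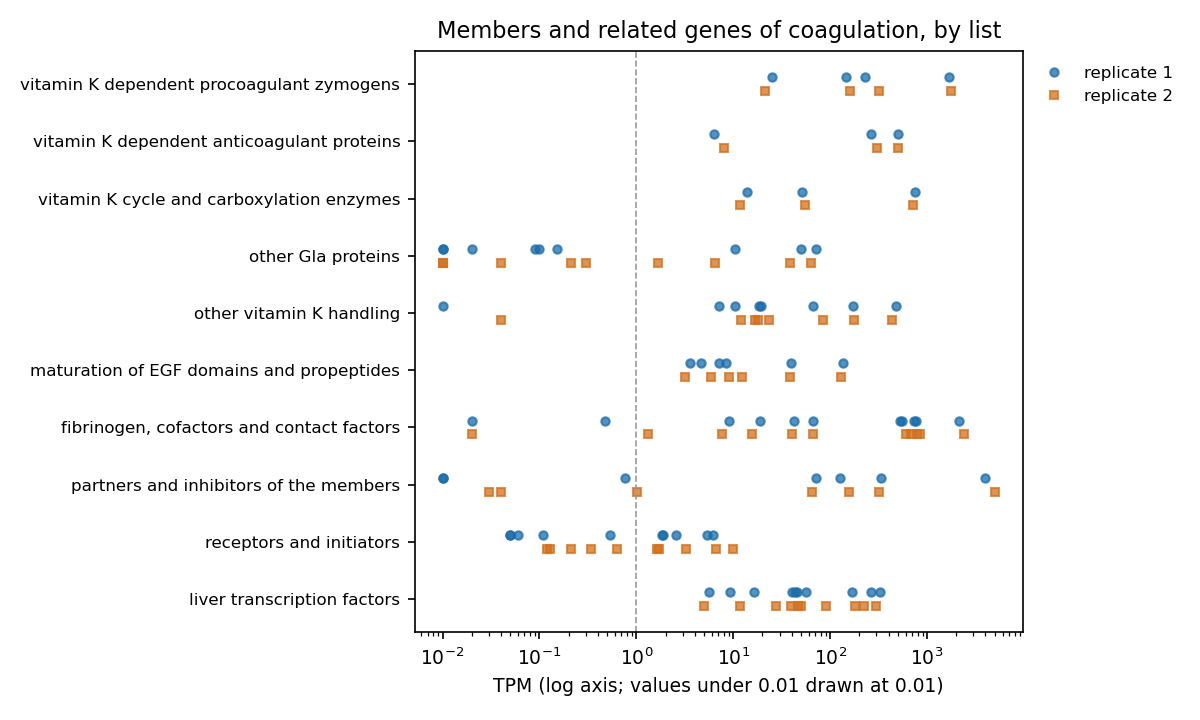
TPM on a log axis of the genes in each list, with replicate 1 as circles above replicate 2 as squares and a dashed line at 1 TPM; values under 0.01 are drawn at 0.01. The clotting factors and their enzymes lie between 6.29 and 1770.02 TPM, and all receptors and initiators lie below 10 TPM.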

How the data were processed

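Polyadenylated RNA was measured in 2 libraries of 1 group, grouped and numbered by the labels. The deposited gene and transcript tables are on mm10 with GENCODE M4, per the file headers and notes; no tool or aligner is named in the sources used here. Estimated counts, deposited by the authors, need not be whole and were rounded for tests. The deposited TPM have a fixed sum per library that includes spike-ins. FPKM, also deposited, served as an alternative. For each transcript the deposited percent states how much of the gene's TPM it holds. The posterior SD of counts, a score given by the authors, marked shared reads. Whole-number junction read counts are on mm9, per the file headers, pooled over libraries. They were assigned to the 10 genes by chromosome, strand and the lengths and spacing of all introns (82 of 82 matched), so no mm9 coordinate is given; how these reads were filtered is not stated.

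Symbols, positions, exons and sequences came from GENCODE M21 on GRCm38 by stable identifier (42462 of 43346 genes matched). Scaling used edgeR 4.0.16 and, as an alternative, DESeq2 1.42.0 size factors; the exact test used scipy 1.17.1. The exact test was tested on simulated data with counting error alone, which is what the test assumes. That simulation cannot show how the test behaves where libraries differ by more than counting error. Entries with numeric identifiers (26248) had 0 reads, and 97 spike-in and control entries stayed out of gene counts. Unmapped columns numbered 0. At a count of 0, 3 reads are the upper limit, which is 0.0341 and 0.0336 TPM for F2 in replicates 1 and 2. The members, lists and tests were chosen with earlier results of these data known. All 10 members are named; of other lists, the 2 highest by mean TPM and any gene at 10 TPM or more, 2-fold apart and passing the test. A gene that this rule selects is not reported here. Klkb1 was not matched to a table entry. With 1 group, no likeness of pattern across conditions could be computed.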

Additional observations from a re-analysis of the deposited data

How the results depend on the processing

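No paired analysis was possible because the labels give 1 group only. The summed level of the 10 genes was 3773 ± 148 TPM (SD, n = 2), 3669 to 3878 when a replicate was left out, and moved to 3016 as FPKM and to 4564 with TPM rescaled over nuclear protein-coding genes; with posterior mean TPM or without spike-ins it moved by less than the SD. The order by level kept all 10 places under posterior mean TPM, without spike-ins and without replicate 2, and 8 without replicate 1, where F10 stood above Proz. Between libraries, 8 of 10 genes passed in the main test and 8 to 10 under the 6 alternatives. Over all genes tested, 8370 (57.6%) passed in the main test and 7691 to 8701 under the alternatives. As a share of the genes tested, the alternatives ran between 43.7%, with no filter on low counts, and 63.6%, with at least 100 reads. Of 60 ratios recomputed, 7 changed sign: F2 to -0.066 and -0.095, Proc to -0.023 and -0.053, and Ggcx to -0.089 and -0.118 with total reads and spike-in totals, and F7 to 0.00083 with no filter on low counts. F7 passed the test with both of those scalings (-0.13 and -0.16), and Proc did not with total reads. The isoform with the highest mean share led in both libraries for 5 of 6 genes; taken singly, replicate 1 had it in the lead for 5 genes and replicate 2 for 6, the exception being F10. Fixed transcript lengths, chosen after seeing the data, moved Proz, F10 and Vkorc1l1 as given above. Depth limits F9, Pros1 and Vkorc1l1 most, with 7.5 to 52 reads at the median intron. With 2 libraries no spread between animals can be estimated.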
